A study of Mus musculus with 50 samples.

Results

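The genes described here are 46 genes of the pluripotency network of mouse embryonic stem cells: 44 genes named for their role in that network, and the annotated transcripts Gm13061 and Gm14261, which lie on the other strand at Lin28a and Sall4. They were matched by name to the 37310 entries of the RNA count tables; 45 matched directly and Tfcp2l1 matched under its older symbol, Tcfcp2l1. Of the 46 genes, 27 had enough counts to be tested and 19 did not, among 5034 tested genes in all. RNA was sequenced from J1 mouse embryonic stem cells of strain 129S4/SvJae in 3 groups of 2 libraries: wild type, and the NSD1-/- lines KO1 and KO2. NSD1 is a histone methyltransferase that places H3K36me2. All groups were untreated and grown on gelatin in serum medium with leukemia inhibitory factor (LIF), and the labels do not give how the lines were made, whether each is 1 clone, or whether replicates were separate cultures, so p-values measure the spread between libraries, which may be technical.

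The core network of pluripotency is built on the transcription factors Pou5f1 (Oct4), Sox2 and Nanog, which bind shared enhancers and keep one another's genes active. Naive factors such as Klf2, Klf4, Esrrb and Tbx3 act with them, and LIF signals through Stat3. Otx2, Pou3f1 and the DNA methyltransferases Dnmt3a and Dnmt3b rise as cells become primed to differentiate. Lin28a is an RNA-binding protein that blocks maturation of let-7 microRNAs, and Sall4 is a zinc-finger factor that acts with Pou5f1 and Nanog.

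The counts describe the strand opposite to the counted gene. Per the file headers the counting used a strand setting of 1, which keeps fragments whose first read lies on the gene's own strand. Under that setting genes that every cell transcribes strongly had few counts in libraries of 1150089 to 1285487 counts: Actb had 104 to 144, Gapdh 44 to 75, Eef1a1 166 to 233 and Hprt 0 to 3. CPM is the count per 1000000 of the library's total over the tested genes, scaled by TMM. Over 3812 protein-coding genes with an exon opposite, by an overlap of any size, the median was 1.75 CPM per kilobase of exon. Over 18568 protein-coding genes with no exon opposite the median was 0.0821. A count at Gm13061 is therefore read here as fragments of the Lin28a strand, and a count at Lin28a as fragments of the Gm13061 strand. Low counts at a gene, with or without an exon annotated opposite, may also be fragments of its own strand. The tables do not tell these apart. The 44 genes together held 0.0699% to 0.0852% of all counts per library, and a single entry, AY036118, held 32.3% to 37.2%. Nsd1 itself has no exon opposite, so its 21, 25, 55, 38, 27 and 21 counts (wild type, KO1 and KO2, 2 libraries each) do not check the genotypes.

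The loci of Lin28a, Sall4 and Gbx2 show what was counted, and the stretches below are given on the strand of the pluripotency gene, 5′ to 3′, from the NCBIM37 (mm9) genome, with the coding bases of that gene in capitals and its intron in lower case. At Lin28a (chr4:133559245-133574756, minus strand), Gm13061 (ENSMUSG00000087288.1, a lincRNA, chr4:133574062-133575784, plus strand) has 2 exons with 664 bases: 103 lie in a coding exon of Lin28a, 131 in a Lin28a intron and 430 outside the gene. The exon over Lin28a covers chr4:133574062-133574295. At Sall4 (chr2:168573832-168593443, minus strand), Gm14261 (ENSMUSG00000085322.1, a lincRNA, chr2:168591643-168593608, plus strand) has 1429 exon bases: 526 in Sall4 exons, of which 118 are coding, 738 in introns and 165 outside. The stretch shown, chr2:168592282-168592529, begins at the Sall4 start codon. At Gbx2 (chr1:91824537-91829865, minus strand), all 1372 exon bases of D130058E05Rik (ENSMUSG00000092627.1, annotated as protein-coding, chr1:91826809-91828437, plus strand) lie in Gbx2 exons, 265 of them coding, and the stretch shown, chr1:91827286-91827330, begins at the Gbx2 start codon.
Lin28a: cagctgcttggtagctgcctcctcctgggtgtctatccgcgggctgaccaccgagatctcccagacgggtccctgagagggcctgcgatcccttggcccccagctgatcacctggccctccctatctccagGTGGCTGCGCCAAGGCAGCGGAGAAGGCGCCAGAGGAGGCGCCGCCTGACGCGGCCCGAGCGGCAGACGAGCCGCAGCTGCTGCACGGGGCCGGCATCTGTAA
Sall4: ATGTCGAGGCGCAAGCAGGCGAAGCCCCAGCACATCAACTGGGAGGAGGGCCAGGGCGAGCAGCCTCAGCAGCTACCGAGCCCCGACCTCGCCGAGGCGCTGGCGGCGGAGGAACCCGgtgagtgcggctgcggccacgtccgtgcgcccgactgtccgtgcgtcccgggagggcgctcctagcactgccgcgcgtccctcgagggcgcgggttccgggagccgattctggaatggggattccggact
Gbx2: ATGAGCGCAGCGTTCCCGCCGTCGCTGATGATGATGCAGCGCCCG

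For D130058E05Rik the counted bases are thus all exonic on the Gbx2 strand. For Gm13061 and Gm14261 most counted bases are intronic or upstream of the coding gene, so mature mRNA, unspliced RNA and other transcripts of that strand cannot be told apart.

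**Figure D1:**
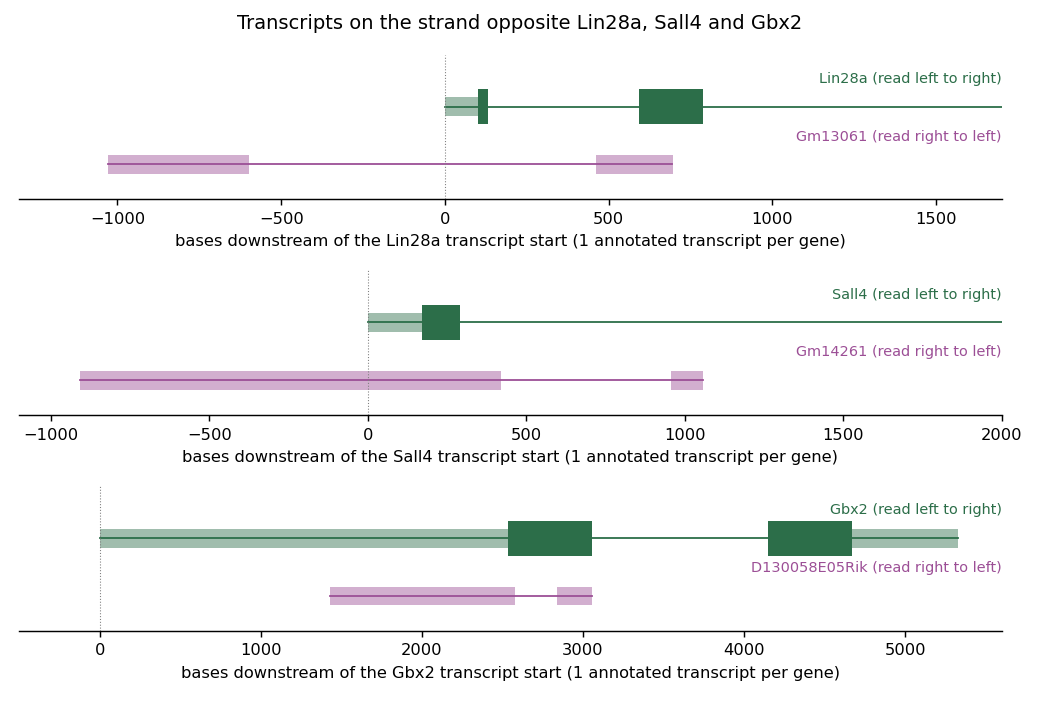
Exon maps of Lin28a, Sall4 and Gbx2 (green, 1 annotated transcript each) and of the transcripts on the other strand (purple); the x axis is the distance in bases from the start of the green transcript, boxes are exons, and tall green boxes are coding. Gm13061 reaches into 1 coding exon of Lin28a and lies mostly upstream or in an intron, whereas D130058E05Rik lies inside the Gbx2 exons.

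Counts at Gm13061, which are read as RNA of the Lin28a strand, fell in both NSD1-/- lines. Gm13061 had 515 and 503 counts in wild type, then 401 and 362 in KO1, and 417 and 372 in KO2, which is 439 ± 16.2, 314 ± 14.6 and 339 ± 45.9 CPM (mean ± SD, n = 2). All 4 knockout libraries were below both wild-type libraries, and the KO1 and KO2 ranges overlapped. Under edgeR's quasi-likelihood test, adjusted by the Benjamini-Hochberg method over all tested genes, the log2 fold change was -0.43 ± 0.08 (SE) for the lines together (adjusted p = 0.000312), -0.48 ± 0.09 in KO1 (adjusted p = 0.000323) and -0.38 ± 0.09 in KO2 (adjusted p = 0.00518). KO1 and KO2 differed by -0.11 ± 0.09 (adjusted p = 0.452). The KO2 call was lost without KO2 replicate 2 (-0.23, adjusted p = 0.213) and with DESeq2 (adjusted p = 0.0818), and the call for the lines together was lost when KO1 and KO2 were taken as 1 group (adjusted p = 0.333), a fit that called 6 genes in all. In bulk RNA, fewer cells of a type and less RNA per cell cannot be told apart. Lin28a itself, whose counts are read as RNA of the Gm13061 strand, had 12, 21, 10, 19, 15 and 22 counts with overlapping groups. Its log2 fold change was -0.05 ± 0.33 for the lines together (edgeR's quasi-likelihood test, adjusted p = 0.964).

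Counts at Gm14261, which are read as RNA of the Sall4 strand, fell in KO2, and the KO1 value did not pass the test. Gm14261 had 583 and 536 counts in wild type, then 596 and 607 in KO1, and 458 and 488 in KO2, or 483 ± 38.5, 495 ± 19.1 and 405 ± 4.13 CPM (mean ± SD, n = 2). Both KO2 libraries were below the other 4 libraries, and KO1 overlapped wild type. The log2 fold change was 0.04 ± 0.08 in KO1 (adjusted p = 0.838), -0.25 ± 0.08 in KO2 (adjusted p = 0.0415) and -0.11 ± 0.07 for the lines together (adjusted p = 0.417), under edgeR's quasi-likelihood test. KO1 exceeded KO2 by 0.29 ± 0.08 (adjusted p = 0.00814), so the difference between the lines was itself past the threshold. The KO2 call lies near the threshold: it was lost without wild-type replicate 1 (-0.16, adjusted p = 0.413), KO1 replicate 1 (0.0541), KO1 replicate 2 (0.0525), KO2 replicate 1 (0.135) or KO2 replicate 2 (0.178), and with DESeq2 (0.288), no filter (0.135) or a minimum count of 5 (0.0649). The difference between the lines was lost without KO1 replicate 2 (0.113) or KO2 replicate 2 (0.0509) and with DESeq2 (0.0854), values being adjusted p. Sall4 itself had 32 and 40 counts in wild type, 29 and 38 in KO1 and 21 in each KO2 library, with both KO2 libraries lowest. Its log2 fold change was -0.78 ± 0.29 in KO2 (adjusted p = 0.0873) and -0.48 ± 0.23 for the lines together (adjusted p = 0.269), which did not pass edgeR's quasi-likelihood test.

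Other genes of the network with an exon opposite were taken by a fixed overlap of at least 50 bases, which gave 7 genes in all: Lin28a, Sall4, Gbx2, Tbx3, Bmp4, Stat3 and Dnmt3a. Summed over the libraries, the opposite gene had 26.0 times the counts of Lin28a (Gm13061), 18.1 times those of Sall4 (Gm14261), 12.5 times those of Tbx3 (Gm2301), 5.79 times those of Bmp4 (Gm15217) and 4.24 times those of Gbx2 (D130058E05Rik). At Stat3 the opposite gene, Stat5a, had 0.882 times as many, and at Dnmt3a, Gm10485 had 0.0930 times as many. So at 5 of the 7 loci most counts lay at the gene opposite, which describe the strand of the pluripotency gene.

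Counts at D130058E05Rik, which are read as RNA of the strand of Gbx2, a homeobox gene that LIF and Stat3 activate in naive cells, rose in KO1 and in the lines together. D130058E05Rik had 295 and 275 counts in wild type, then 369 and 366 in KO1, and 333 and 364 in KO2, or 246 ± 17.2, 303 ± 6.02 and 298 ± 2.35 CPM (mean ± SD, n = 2). All 4 knockout libraries were above both wild-type libraries. Under edgeR's quasi-likelihood test the log2 fold change was 0.29 ± 0.08 for the lines together (adjusted p = 0.0241), 0.30 ± 0.09 in KO1 (adjusted p = 0.0339) and 0.28 ± 0.09 in KO2 (adjusted p = 0.0551). The call for the lines together was lost without wild-type replicate 2 (0.23, adjusted p = 0.297) or KO1 replicate 2 (0.0896), and the KO1 call without wild-type replicate 2 (0.284), KO1 replicate 1 (0.100) or KO1 replicate 2 (0.215). DESeq2 called neither (adjusted p = 0.195 together and 0.253 in KO1), nor did the fit with no filter (0.0558 and 0.139).

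Gbx2 itself, whose counts are read as RNA of the other strand, had 75 and 70 counts in wild type, 99 and 98 in KO1 and 65 in each KO2 library. KO1 was above and KO2 below wild type, with log2 fold changes of 0.37 ± 0.17 (adjusted p = 0.169) and -0.17 ± 0.18 (adjusted p = 0.639) that did not pass edgeR's quasi-likelihood test. The difference between the lines did, at 0.54 ± 0.17 (adjusted p = 0.0230). That call was lost without KO1 replicate 1 (adjusted p = 0.0784), KO1 replicate 2 (0.110), KO2 replicate 1 (0.0650) or KO2 replicate 2 (0.159), and with DESeq2 (0.185) or no filter (0.0830).

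Tbx3 is a T-box factor of naive cells, at chr5:120120678-120134733 on the plus strand. Gm2301 (chr5:120061272-120121374, minus strand) shares 115 exon bases with it and otherwise lies upstream. Gm2301 had 634 and 582 counts in wild type, then 751 and 724 in KO1, and 558 and 620 in KO2. KO1 was above the other 4 libraries, and KO2 overlapped wild type. The log2 fold change was 0.21 ± 0.07 in KO1 (adjusted p = 0.0621) and -0.06 ± 0.07 in KO2 (adjusted p = 0.716), and KO1 exceeded KO2 by 0.27 ± 0.07 (adjusted p = 0.00840), under edgeR's quasi-likelihood test. The last call was lost without KO1 replicate 1 (adjusted p = 0.0529), KO1 replicate 2 (0.0663) or KO2 replicate 1 (0.0783), and with DESeq2 (0.0900) or no filter (0.0623). Tbx3 itself had 50, 55, 69, 48, 43 and 45 counts. Gm15217, opposite the signalling ligand Bmp4, had 25, 29, 27, 8, 27 and 23 counts, low in KO1 replicate 2 only, and Stat5a, opposite Stat3, had 9 to 14.

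**Figure D2:**
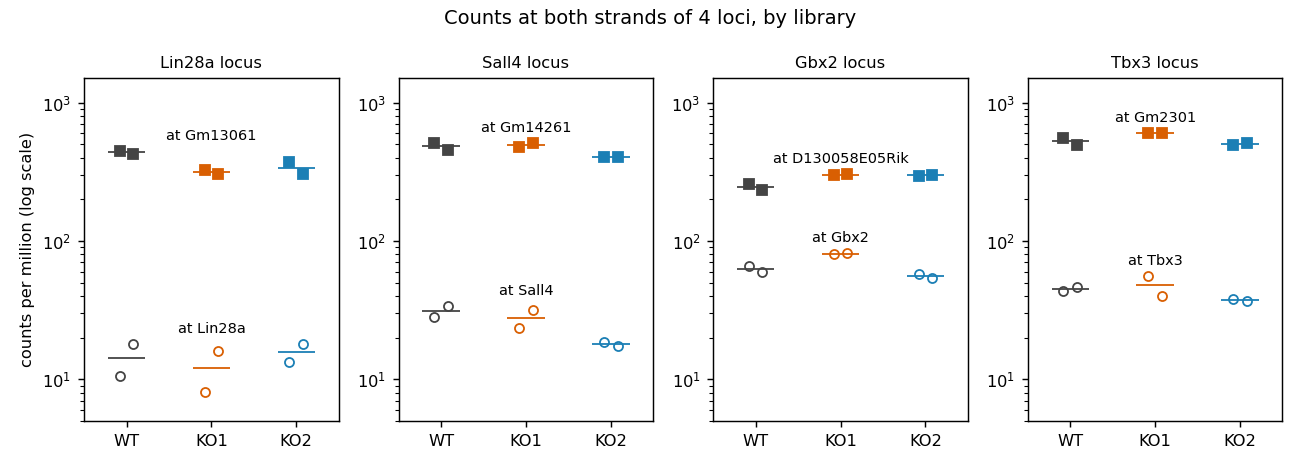
CPM on a log axis at Lin28a, Sall4, Gbx2 and Tbx3 (open circles) and at the transcript opposite each (filled squares), 1 symbol per library with a line at the mean of the 2 libraries of a group. Counts at Gm13061 are lower in both NSD1-/- lines than in wild type, those at D130058E05Rik are higher in both, and those at Gm14261 are lower in KO2. The open circles are read as the other strand and lie well below the squares.

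The transcription factors of the core network had low counts and did not pass the test. Pou5f1 had 17, 14, 16, 18, 18 and 23 counts (2 libraries each of wild type, KO1 and KO2), Sox2 had 81, 81, 92, 100, 66 and 70, and Nanog had 14, 4, 1, 13, 12 and 6. The Nanog groups overlapped throughout; for Sox2 both KO1 libraries were above and both KO2 libraries below wild type, at 69.9 ± 1.42, 79.1 ± 6.69 and 58.3 ± 0.784 CPM (mean ± SD, n = 2). For the lines together against wild type, under edgeR's quasi-likelihood test, the log2 fold change was 0.23 ± 0.30 for Pou5f1 (adjusted p = 0.751), -0.04 ± 0.15 for Sox2 (adjusted p = 0.918) and -0.22 ± 0.58 for Nanog (adjusted p = 0.891). None of the 3 genes has an annotated exon opposite, so which strand these low counts came from cannot be told apart.

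Trim28, a co-repressor that keeps retroelements silent, had 54, 62, 56, 54, 46 and 64 counts and a log2 fold change of -0.12 ± 0.18 for the lines together (edgeR's quasi-likelihood test, adjusted p = 0.780). Klf4, a zinc-finger factor of naive cells, had the most counts of the 44 genes, at 154, 133, 162, 134, 174 and 161, and a fold change of 0.10 ± 0.12 (adjusted p = 0.731). Klf2, another such factor, had 64, 85, 101, 123, 70 and 97 counts, with KO1 above wild type and a log2 fold change of 0.52 ± 0.18 in KO1 (edgeR's quasi-likelihood test, adjusted p = 0.0592). Klf2 passed in KO1 without wild-type replicate 2 (0.72, adjusted p = 0.0242), KO1 replicate 1 (0.0462), KO2 replicate 1 (0.0238) or KO2 replicate 2 (0.0255), and without AY036118 (0.0448). Zfp42 (Rex1), a marker of naive cells, had 31, 36, 22, 21, 34 and 32 counts, with KO1 below the other 4 libraries. Its log2 fold change of -0.70 ± 0.28 in KO1 did not pass (edgeR's quasi-likelihood test, adjusted p = 0.117). None of these genes has an annotated exon opposite, so which strand their counts came from cannot be told apart.

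Counts at L1td1, Sox15 and Socs3 also differed between the NSD1-/- lines. L1td1 and Socs3 have no annotated exon opposite, and Sox15 shares 31 exon bases with Mpdu1 on the other strand. Which strand the counts at these genes came from cannot be told apart. L1td1, an RNA-binding protein derived from the LINE-1 element, had 5 and 11 counts in wild type, then 11 and 18 in KO1, and 4 and 3 in KO2, with KO2 below the other libraries. Its log2 fold change was 0.78 ± 0.49 in KO1 (adjusted p = 0.369) and -1.17 ± 0.66 in KO2 (adjusted p = 0.312), and the lines differed by 1.96 ± 0.59 (adjusted p = 0.0172) under edgeR's quasi-likelihood test. That call was lost without KO1 replicate 2 (adjusted p = 0.233) or KO2 replicate 2 (0.102).

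Counts at Sox15, a relative of Sox2, and at Socs3, the feedback inhibitor of LIF signalling, were highest in KO2. Sox15 had 28 and 33 counts in wild type, then 34 and 28 in KO1, and 55 and 48 in KO2, and Socs3 had 19 and 13, 16 and 10, and 22 and 33. For each gene both KO2 libraries were above the other 4. Sox15 changed by -0.04 ± 0.27 in KO1 and 0.74 ± 0.24 in KO2 on the log2 scale (edgeR's quasi-likelihood test, adjusted p = 0.957 and 0.0468), and the lines differed by -0.79 ± 0.24 (adjusted p = 0.0180). Socs3 changed by -0.36 ± 0.39 in KO1 and 0.77 ± 0.33 in KO2 (adjusted p = 0.643 and 0.161), and the lines differed by -1.13 ± 0.34 (adjusted p = 0.0192). Both genes are on chromosome 11. There the median log2 fold change of 560 tested genes differed from that of all tested genes by 0.41 in KO2 and 0.06 in KO1. The part of this shift in the values of Sox15 and Socs3 was not tested.

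The Sox15 call in KO2 was lost without wild-type replicate 1 (0.66, adjusted p = 0.233), wild-type replicate 2 (0.0942), KO1 replicate 1 (0.0509), KO1 replicate 2 (0.0585) or KO2 replicate 1 (0.271), and with DESeq2 (0.316) or no filter (0.0879). The difference between the lines was lost for Sox15 without KO1 replicate 1 (0.0564), KO1 replicate 2 (0.127) or KO2 replicate 1 (0.147), and for Socs3 without KO1 replicate 2 (0.182) or KO2 replicate 2 (0.213).

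Calls among these genes were set beside those among all tested genes. For the lines together 1 of 27 tested genes was called, Gm13061, which fell, where 6.62% of all tested genes were called in either direction, 2.72% higher and 3.89% lower. In KO1 against wild type 1 gene was called, Gm13061 again, where 9.79% of all genes were called, 3.46% higher and 6.34% lower. In KO2 3 were called (Sox15 higher, Gm13061 and Gm14261 lower), where 8.98% of all genes were called, 5.01% higher and 3.97% lower. Between the lines 5 were called (Gm14261, L1td1 and Gbx2 higher in KO1, Sox15 and Socs3 lower), where 19.3% of all genes were called, 7.93% higher and 11.4% lower; without KO1 replicate 2 the count was 0, and without KO2 replicate 2 it was 1. The comparisons with wild type share the wild-type libraries. The median log2 fold change of the 27 genes was 0.07 for the lines together, 0.08 in KO1 and -0.03 in KO2, against -0.01, 0.01 and -0.01 for all tested genes.

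By role, none of the 13 tested core genes was called in KO1, in KO2 or in the lines together (edgeR's quasi-likelihood test; 1, 1 and 0 had an unadjusted p under 0.05). Of the 12 tested naive genes 1 was called, Sox15 in KO2 (3, 2 and 1 at that unadjusted p). DESeq2 called no gene of the 46 in KO2 or between the lines, and Gm13061 alone in KO1 and in the lines together.

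**Figure D3:**
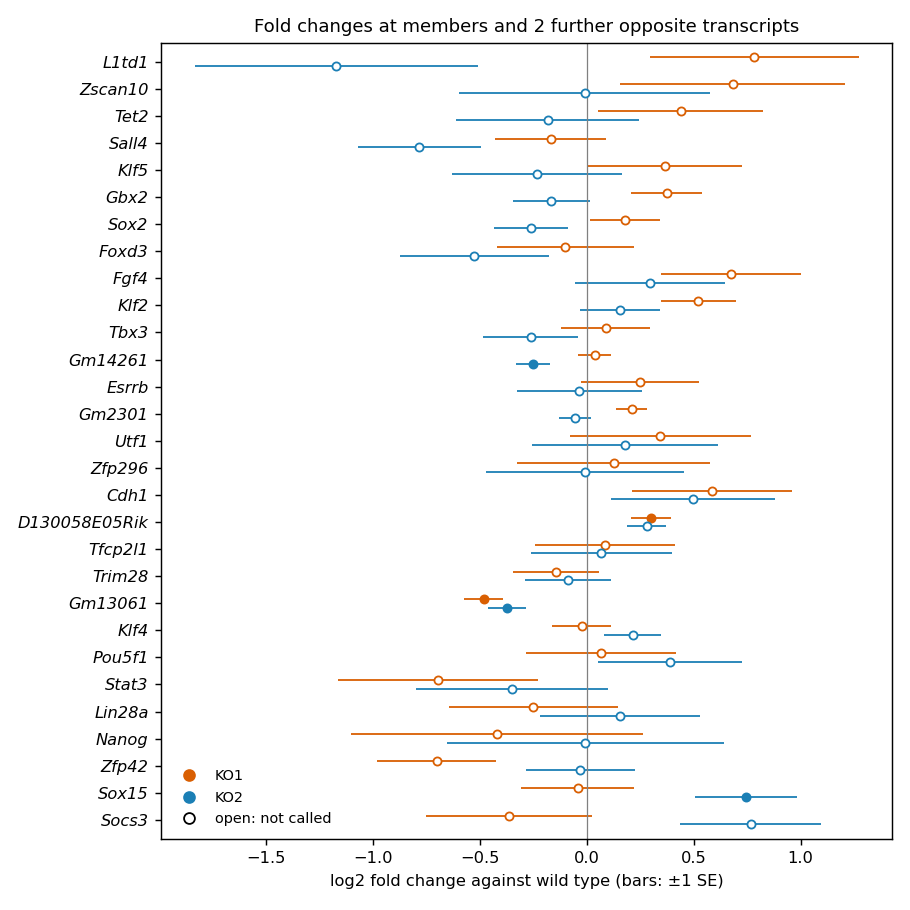
Log2 fold change against wild type for the 27 tested genes and for D130058E05Rik and Gm2301, in KO1 (orange) and KO2 (blue), with bars of 1 SE and filled symbols where the adjusted p was under 0.05. Gm13061 is filled in both lines, D130058E05Rik in KO1, and Gm14261 and Sox15 in KO2.

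The other tested genes of the network are given by their counts over the 6 libraries. Among core genes these were Utf1, a chromatin factor (9 to 14), Foxd3, a forkhead factor (13 to 26), Fgf4, the growth factor that drives exit from the naive state (12 to 34), Cdh1, the adhesion protein E-cadherin (9 to 23), and the zinc-finger factors Zfp296 (8 to 13) and Zscan10 (5 to 11). Among naive genes they were the nuclear receptor Esrrb (24 to 42), Tfcp2l1 (15 to 21), Klf5 (8 to 26), the 5-methylcytosine oxidase Tet2 (8 to 19) and Stat3 (7 to 17). None was called against wild type or between the lines.

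Of the 4 genes of the primed state none was tested. Otx2 had 0 to 6 counts, Dnmt3a 1 to 13, Dnmt3b 2 to 10, and Pou3f1 was at 0 in every library, which allows up to 2.33 to 2.61 CPM (3 counts of the total, counting error only). Pou3f1 has 2 overlapping entries on the same strand in the tables, both at 0. The header shows no option for fragments that overlap several genes, so reads over both entries may have been left uncounted. The other untested genes were Dppa5a (4 to 12), Nr5a2 (4 to 13), Nr0b1 (5 to 8), Spp1 (4 to 8), Pecam1 (2 to 6), Bmp4 (2 to 5), Prdm14 (1 to 5), Tdgf1 (1 to 4), Epcam (1 to 4), Dppa4 (1 to 3), Lin28b (1 to 3), Fbxo15 (0 to 3), Dppa3 (0 to 2), Tcl1 (0 to 1) and Dppa2 (0 to 1). These depths do not show whether such genes differed.

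Although low, the counts at these genes were above those at most genes with nothing opposite. Of the 44 genes, 36 protein-coding genes have no annotated exon opposite, and their median was 2.63 CPM per kilobase, against 0.0821 over all such genes, whose 90th percentile was 2.49; 34 of the 36 lay above that median. Per kilobase, the highest levels among these 36 genes were those of Klf4 at 42.4 ± 5.18, Klf2 at 41.1 ± 9.004 and Sox2 at 28.1 ± 4.003 (SD over the 6 libraries), followed by Zfp42 at 13.9 ± 3.26 and Trim28 at 11.7 ± 1.14. Klf4 and Klf2 differed by less than their spread, as did Zfp42 and Trim28. Pou5f1 stood at 6.63 ± 1.10 and Nanog at 3.196 ± 2.11, and Dppa2 and Pou3f1 were the genes at or below the median. Fragments of the genes' own strand and of transcripts on the other strand cannot be told apart in these values.

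**Figure D4:**
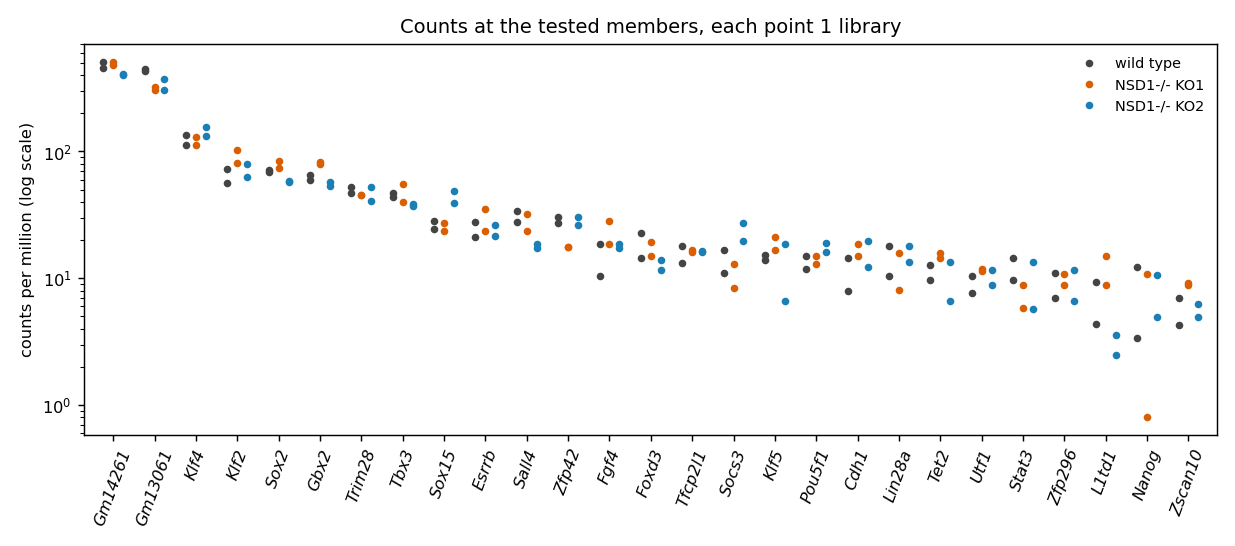
CPM on a log axis for the 27 tested genes, ordered by their mean, 1 point per library. Gm14261 and Gm13061 lie above all others, Klf4 follows, and the libraries of Nanog and L1td1 spread the most widely.

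Genes of the pathways around this network were counted from 4 lists, which were chosen with earlier results of these data known. Of all tested genes 6.62% were called for the lines together, 9.79% in KO1 and 8.98% in KO2. Opposite genes of these lists lay 16 genes by an exon overlap of at least 50 bases, all tested. For the lines together 1 of them was called higher and 3 lower under edgeR's quasi-likelihood test. In KO1 these counts were 1 and 3, and in KO2 1 and 1. Between the lines 4 were higher in KO1 and 3 lower, where 19.3% of all tested genes were called. Described below are Gm16912, 2410003K15Rik and 1700006J14Rik. Trmt2a and D830050J10Rik were also called, both lower in KO1. Of 16 genes of LIF and Stat3 signalling 6 were tested and 1 was called, Pim1, a kinase gene that Stat3 activates. It had 10 and 12 counts in wild type, then 30 and 32 in KO1, and 28 and 24 in KO2, with all 4 knockout libraries above wild type. Under edgeR's quasi-likelihood test its log2 fold change was 1.32 ± 0.30 for the lines together (adjusted p = 0.00472), 1.42 ± 0.33 in KO1 (adjusted p = 0.00422) and 1.22 ± 0.34 in KO2 (adjusted p = 0.0222).

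These Pim1 counts are read as RNA of the strand of Gm16912 (chr17:29598841-29628870, minus strand). They are few beside those at Gm16912, so fragments of the Pim1 strand may be among them. Gm16912 shares 468 of its 1688 exon bases with Pim1 (chr17:29627757-29632390, plus strand). The other Gm16912 exon bases lie upstream of Pim1 or in Pim1 introns. Pim1 mRNA and other RNA of the Pim1 strand thus cannot be told apart. At Gm16912, where counts describe the Pim1 strand, there were 627 and 773 counts in wild type, then 1215 and 1181 in KO1, and 942 and 1045 in KO2. All 4 knockout libraries were above wild type here too, and KO1 was above KO2. The log2 fold change was 0.60 ± 0.06 for the lines together (adjusted p = 5.44e-08), 0.71 ± 0.07 in KO1 (adjusted p = 1.47e-08) and 0.50 ± 0.07 in KO2 (adjusted p = 9.49e-06) under edgeR's quasi-likelihood test. The lines differed by 0.21 ± 0.07 (adjusted p = 0.0246).

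The Gm16912 calls against wild type stayed past the threshold without any 1 library and with DESeq2; with the lines as 1 group the call for the lines together was lost (adjusted p = 0.123). Its difference between the lines was lost without KO1 replicate 1 (adjusted p = 0.0970), KO1 replicate 2 (0.147) or KO2 replicate 1 (0.137), and with DESeq2 (0.165) or no filter (0.156). Pim1 lost its call without wild-type replicate 1 for the lines together (0.0802), KO1 (0.05003) and KO2 (0.139), in KO1 without KO1 replicate 2 (0.0515), in KO2 without wild-type replicate 2 (0.0689) or KO2 replicate 1 (0.141), and with DESeq2 for the lines together (0.0975) and KO1 (0.0872).

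Of 13 genes of the LIN28 and let-7 pathway 7 were tested and none was called in KO2 or in the lines together. At Igf2bp3, an RNA-binding protein whose mRNA let-7 targets, counts are read as RNA of the strand of 2410003K15Rik. They are few beside those at 2410003K15Rik, so fragments of the Igf2bp3 strand may be among them. 2410003K15Rik shares 1531 of its 3079 exon bases with Igf2bp3. The other 2410003K15Rik exon bases lie downstream of Igf2bp3 or in Igf2bp3 introns. Igf2bp3 mRNA and other RNA of the Igf2bp3 strand thus cannot be told apart. Igf2bp3 had 92 and 75 counts in wild type, then 60 and 53 in KO1, and 80 and 91 in KO2. Its counts fell in KO1 by 0.63 on the log2 scale (SE 0.19, edgeR's quasi-likelihood test, adjusted p = 0.0269), and this call was lost without wild-type replicate 1 (-0.46, adjusted p = 0.318), KO1 replicate 1 (0.0999) or KO1 replicate 2 (0.164), and with DESeq2 (0.233). At 2410003K15Rik, where counts describe the Igf2bp3 strand, there were 2083, 2059, 954, 988, 1912 and 2113 counts. KO1 was below the other 4 libraries, with a log2 fold change of -1.16 ± 0.06 in KO1 (adjusted p = 2.69e-15) against -0.05 ± 0.05 in KO2 (adjusted p = 0.616) under edgeR's quasi-likelihood test. The KO1 call held without any 1 library and with DESeq2 . Both genes lie on chromosome 6. There the median log2 fold change of 259 tested genes differed from that of all tested genes by -0.42 in KO1 and -0.02 in KO2. The part of this shift in the values of Igf2bp3 and 2410003K15Rik was not tested.

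1700006J14Rik shares 140 of its 2885 exon bases with exons of the let-7 target Hmga2, and its counts are read as RNA of the Hmga2 strand. The other 1700006J14Rik exon bases lie in Hmga2 introns. Hmga2 mRNA and other RNA of the Hmga2 strand thus cannot be told apart. It had 43, 51, 50, 38, 15 and 22 counts. KO2 was below the other 4 libraries, with a log2 fold change of -1.35 ± 0.28 in KO2 (adjusted p = 0.00127) against -0.16 ± 0.23 in KO1 (adjusted p = 0.744) under edgeR's quasi-likelihood test. The KO2 call held without any 1 library and with DESeq2.

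Of 17 genes of FGF and MAPK signalling 7 were tested and none was called against wild type (edgeR's quasi-likelihood test; 0 in KO1 and 1 in KO2 had an unadjusted p under 0.05). Of 17 genes of BMP, Nodal and Activin signalling 4 were tested and 1 was called. It was Lefty2, a secreted inhibitor of Nodal, at 42 and 33 counts in wild type, 13 in each KO1 library, and 28 and 33 in KO2. KO1 was below the other 4 libraries, with a log2 fold change of -1.59 ± 0.31 (adjusted p = 0.000659), and for the lines together it was -0.95 ± 0.24 (adjusted p = 0.0132). The second call was lost without wild-type replicate 1 (-0.74, adjusted p = 0.276) and with DESeq2 (0.202). Lefty2 has no annotated exon opposite, so which strand these counts came from cannot be told apart.

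Marker lists for other cell types were read in the same way, each as a sum over the list. Primitive endoderm markers had 3.50 to 5.10 CPM in the wild-type libraries, 2.52 to 4.85 in those of KO1 and 8.24 to 8.91 in those of KO2. In KO2 this sum was Lama1 alone, a laminin gene with 3, 5, 6, 3, 10 and 10 counts, while Gata6, Sox17, Sox7 and Foxa2 were at 0 in every library and Gata4 and Dab2 had at most 1 count. Fibroblast markers had 23.8 to 26.2, 27.5 to 40.2 and 26.4 to 28.5 CPM in wild type, KO1 and KO2, nearly all at Fn1, with Col1a2, Col3a1, Postn and Thy1 at 0. Mesoderm markers had 41.1 to 45.9, 27.7 to 35.6 and 33.0 to 44.6 in the same order, mostly at Tbx6 and Eomes, with Mesp1 and Kdr at 0. Neuroectoderm markers had 156 to 162, 180.3 to 183 and 149 to 168, nearly all at Pax6, with Zic1 and Map2 at 0. Trophoblast markers, which share Eomes with the mesoderm list, had 19.2 to 23.0, 20.2 to 22.6 and 16.5 to 23.2. Thus the KO2 sum stood above wild type for the primitive endoderm list, and both lines stood above it for the fibroblast list. The KO1 sum stood above wild type for the neuroectoderm list and below it for the mesoderm list. Pax6 shares 5542 exon bases with Elp4 on the other strand, and Fn1 shares 292 with Apol7d. Their counts are therefore read as RNA of the Elp4 and Apol7d strands, not of Pax6 and Fn1. Which strand the counts at the other markers came from, those of pluripotent cells included, cannot be told apart. Neither a sum nor a value of 0 thus measures the markers' own RNA. Hprt, which every cell transcribes, had 0 to 3 counts. The part of these cell types in the values above was not tested. Markers of pluripotent cells summed to 263 to 294, 265 to 281 and 274 to 297 CPM, with overlapping groups.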

How the data were processed

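RNA was measured in 6 libraries, 2 per group. The authors deposited raw counts per gene, 1 table per library. Per the file headers, featureCounts 2.0.1 counted paired fragments over exons of GENCODE mouse version 1 with a strand setting of 1. Tools in the submitters' processing notes, which give no roles, are STAR 2.5.4b, featureCounts 2.0.0, Trim Galore 0.6.4, bedtools 2.92.2, Bowtie2 and GATK 4.1.4.0, and the build is mm9. The sources used here do not say whether the library kit was stranded. Spans and strands of all 37310 genes equalled the annotation. The counted strand was read from abundant genes and from genes opposite each other, so each value is read as the strand opposite to the named gene unless stated.

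edgeR 4.0.16 (R 4.3.3) was used for the tests. Genes were kept by its function filterByExpr at a minimum count of 10, libraries were scaled by TMM, and a robust quasi-likelihood model with 1 mean per group was fitted to 5034 genes, with 3 residual degrees of freedom and a common biological coefficient of variation of 4.46%. Compared were wild type with each NSD1-/- line and with the mean of the lines, and the lines with each other. Calls were made at a Benjamini-Hochberg adjusted p under 0.05 over all tested genes; SE is the fold change divided by the square root of F. The procedure was tested on simulated counts. Totals of 1150089 to 1285487 counts gave a median of 23 to 27 counts per tested gene and library, which limits precision at the genes described.

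Fold changes were given in full for genes of the list called in any contrast and for Pou5f1, Sox2, Nanog, Sall4, Gm14261, Lin28a, Gm13061, Klf4 and Trim28. Klf2 and Zfp42 were added after their values were seen, as were Gm16912, 1700006J14Rik, 2410003K15Rik and the fold changes of Gbx2, Socs3 and L1td1 in each line. Genes on the other strand were taken from exon overlaps of at least 50 bases (bedtools 2.31.1). The medians over genes with and without an exon opposite used overlaps of any size. The genes and pathway lists were chosen with earlier results of these data known. Alternatives were DESeq2 1.42.0, no filter, a minimum count of 5, a replicate block, AY036118 left out, the NSD1-/- lines as 1 group, and each library left out. The 44 samples of chromatin assays were not used here.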

Additional observations from a re-analysis of the deposited data

Results flagged for a closer look

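The NSD1-/- lines differed from each other at 6 of the pluripotency genes and their opposite transcripts, in edgeR's quasi-likelihood test of KO1 against KO2, p-values being Benjamini-Hochberg adjusted. On the log2 scale KO1 exceeded KO2 by 0.29 at Gm14261, opposite Sall4 (adjusted p = 0.00814), by 1.96 at L1td1 (adjusted p = 0.0172), by 0.54 at Gbx2 (adjusted p = 0.0230) and by 0.27 at Gm2301, opposite Tbx3 (adjusted p = 0.00840). The difference was -0.79 at Sox15 (adjusted p = 0.0180) and -1.13 at Socs3 (adjusted p = 0.0192), so these were higher in KO2.

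Other genes described also passed this test. KO1 exceeded KO2 by 0.89 at Nsd1 (adjusted p = 0.0187), by 0.21 at Gm16912, opposite Pim1 (adjusted p = 0.0246), and by 1.19 at 1700006J14Rik, opposite Hmga2 (adjusted p = 0.00265). The difference was -1.28 at Lefty2 (adjusted p = 0.00494), -0.65 at Igf2bp3 (adjusted p = 0.0117) and -1.11 at 2410003K15Rik, opposite Igf2bp3 (adjusted p = 9.60e-15). Without KO1 replicate 1 the call was lost at Nsd1 (adjusted p = 0.238), 1700006J14Rik (0.0577), Lefty2 (0.0532) and Igf2bp3 (0.05302), without KO1 replicate 2 at Igf2bp3 (0.0925), and without KO2 replicate 2 at Nsd1 (0.190) and Igf2bp3 (0.0542). With DESeq2 the calls at Nsd1, Lefty2 and Igf2bp3 were lost as well. Of all tested genes 19.3% were called in this contrast.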

How the results depend on the processing

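The count of all called genes was 333 for the lines together, 493 in KO1, 452 in KO2 and 971 between the lines; DESeq2 called 115, 207, 170 and 417. Taking KO1 and KO2 as 1 group left 6 genes for the lines together, and 0 of the genes described here. Leaving out each library gave 213 to 362, 280 to 591, 328 to 435 and 561 to 1065. Of the pluripotency genes and their opposite transcripts the counts called were 1, 1, 3 and 5; DESeq2 gave 0 in KO2 and 0 between the lines, no filter gave 1 in KO2, and leaving out AY036118 gave 2 in KO1, Klf2 being added. Leaving out each library gave 1 to 1, 1 to 2, 1 to 2 and 0 to 5. Same-numbered replicates did not deviate together (correlations 0.0109, -0.00685 and -0.0356), so the numbers do not pair the samples; with a replicate block the counts were 2 in KO1, Klf2 being added (adjusted p = 0.0348), and 1 in KO2, where the adjusted p was 0.0523 for Gm14261 and 0.0504 for Sox15.

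Signs turned only when 1 library was left out, and only where the test was not passed. Over those fits the log2 fold change for the lines together ran from -0.096 to 0.0067 at Sox2, -1.57 to 0.96 at Nanog, -0.37 to 0.39 at Lin28a and -0.018 to 0.23 at Klf4. In KO1 it ran from -0.042 to 0.12 at Gm14261 and -0.15 to 0.059 at Sox15, in KO2 from -0.12 to 0.037 at Gm2301, and between the lines from -0.26 to 0.013 at Gm13061. The cause was not tested. DESeq2 gave no adjusted p for Pou5f1, Nanog and Lin28a in the lines together, L1td1 in each comparison, Socs3 in KO2 and between the lines, and Pim1 in KO2. Low counts limit these genes: 15 of the 46 were under 10 counts in every library.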
